A study of Homo sapiens with 9 samples.

Results

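The Krüppel-like factors (KLFs) are zinc finger transcription factors, and 10 of them, KLF3, KLF4, KLF5, KLF6, KLF7, KLF8, KLF9, KLF10, KLF12 and KLF13, were followed in HEK293 cells, a human embryonic kidney cell line. A probe was taken for one of these genes where its RefSeq accession mapped to the gene, which gave 12 of the 42384 probes analysed, for 10 of 19479 named genes, 2 each for KLF6 and KLF8 and 1 for every other gene. The genes were chosen by name from the family with earlier comparisons of the same arrays known, and the rule compares them across all 3 groups. The values of the 10 genes between the groups are therefore a description, and no p-value is printed for them. Their calls at a p-value threshold, counted below, are a description too.

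The cells had been infected with retrovirus (vector pQCXIP-GFP) expressing shRNA 3 or shRNA 4 against SmcHD1 (KD3 and KD4), or the control shRNA NC5 (CTL), and all groups were stably infected populations under puromycin selection. SmcHD1 is an unusual member of the SMC protein family with an ATPase domain of the GHKL type, known for its part in keeping genes on the inactive X chromosome and at other methylated regions silent. Each group was measured on 3 one-colour arrays, which the methods call biological triplicates. Whether they came from separate infections was not given in the sources used here, so errors and p-values measure the spread between these arrays. Both knock-downs were compared with the same 3 CTL arrays, so KD3 and KD4 are not independent of each other. Infected populations carry the hairpin in a mixture of integrants, and in such bulk RNA fewer cells with a transcript and less transcript per cell cannot be told apart.

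On the 9 arrays, 75.1% to 79.8% of the probes were well above background and no spot was saturated. The targeted gene was lower in both knock-downs. Its brightest probe read 10.40, 10.16 and 10.32 in KD3, 9.63, 9.80 and 9.77 in KD4, and 11.20, 11.37 and 11.22 in CTL (normalized log2 signal), a log2 difference of -0.97 ± 0.09 (SE) in KD3 and -1.53 ± 0.09 in KD4 (limma adjusted p = 0.000214 and 1.81e-05). Of 7 genes listed as HEK293 markers, all 7 were well above background on all arrays, and their summed linear signal ranged from 133515 to 148311 in KD3, 155825 to 160264 in KD4 and 144736 to 157621 in CTL. VIM dominates this sum, with a CTL mean of 16.89 (log2) beside 14.03 for KRT18, the next brightest. The sum therefore says little of the dimmer markers. Of these 7, PAX2 (a kidney lineage factor) fell by 2.41 in KD3 and by 2.65 in KD4 on the log2 scale on its brightest probe, with -0.01 and 0.06 on its other probe, and NEFM (a neurofilament) fell by 1.21 and 1.24. The other 5 were under the fold threshold. LHX1 differed by -0.57 and -0.33 (limma adjusted p = 0.000872 and 0.00798), NES by -0.36 and 0.01 (0.0479 and 0.951) and KRT18 by 0.04 and 0.34 (0.812 and 0.0176), and VIM and KRT8 did not pass in either. Of the markers of other cells with a probe, 4 of 6 for fibroblasts, 6 of 7 for blood cells and 2 of 4 for hepatocytes were bright enough to be tested, and none of these was called in either knock-down. COL1A2, COL3A1, HBB, ALB and TF were too dim. The part of these markers in the results below was not tested.

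KLFs bind GC-rich and CACCC-type DNA through zinc fingers at their C-terminal end, and differ in the domains that recruit cofactors. KLF3, KLF8 and KLF12 carry a motif that binds the corepressor CtBP. KLF9, KLF10 and KLF13 recruit the Sin3A-HDAC corepressor, and KLF4, KLF5, KLF6 and KLF7 mostly act as activators, with KLF4 and KLF5 known for opposite effects on epithelial cell proliferation. KLF8 lies on the X chromosome, and no other member does.

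KLF8 has 4 annotated start sites in the RefSeq table (GRCh38.p14), all on the plus strand. They fall into 2 pairs, with 325.0 kb between the first and the last start, 162 bases between the starts of the first pair and 802 bases between those of the second. The 250 bases before 1 start of each pair are shown because KLF8 was the member that stood apart on the arrays, and because both hold the CACCC box that the family itself can bind. Capitals mark CACCC, or GGGTG where the box is on the other strand. The first window is chrX:55908035-55908284 and the second chrX:56232106-56232355, both plus strand of GRCh38.p14. The array design was annotated on another build (hg19) and the start used by each probe's transcript was not given in the columns used, so no probe is assigned to a start.
KLF8 first pair: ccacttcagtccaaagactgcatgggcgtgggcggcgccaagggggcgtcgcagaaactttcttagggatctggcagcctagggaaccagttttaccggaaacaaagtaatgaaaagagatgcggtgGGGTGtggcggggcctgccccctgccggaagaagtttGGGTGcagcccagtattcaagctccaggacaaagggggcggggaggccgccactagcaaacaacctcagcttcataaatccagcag
KLF8 second pair: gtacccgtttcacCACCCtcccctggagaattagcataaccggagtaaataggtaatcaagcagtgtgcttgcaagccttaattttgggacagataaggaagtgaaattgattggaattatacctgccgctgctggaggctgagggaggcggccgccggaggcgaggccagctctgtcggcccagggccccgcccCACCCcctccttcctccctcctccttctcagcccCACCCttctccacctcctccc

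Over windows of 300 bases (250 before and 50 after the start), the 4 KLF8 windows held 2, 2, 3 and 0 CACCC boxes on either strand, in order along the chromosome. The windows of the first pair overlap, and 1 box is counted in both. The box was no rarity. It was found in 59.9% of all 35116 windows in the table, and 27.9% held at least 2. Of the 10 members, 8 had an entry in the table, with 18 windows, of which 11 held the box, in 5 genes. The ratio of observed to expected CpG in the KLF8 windows was 0.386, 0.606, 0.458 and 0.583, beside a median of 0.579 over all windows. A match is a description of letters and not a binding site.

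KLF8 was the member that differed most between the groups. On the probe of the record NM_007250 the normalized log2 signal was 8.97, 8.77 and 8.76 in KD3, 9.27, 9.14 and 9.28 in KD4, and 3.74, 3.43 and 2.38 in CTL. All 6 knock-down arrays lay far above all CTL arrays, and the KD4 arrays lay above the KD3 arrays. The difference from CTL was 5.65 ± 0.29 (SE) in KD3 and 6.04 ± 0.29 in KD4 on the log2 scale, or 50.1-fold and 66.0-fold, and KD4 was 0.40 above KD3.

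The size of this difference rests on a dim control signal. The CTL mean was 3.19 ± 0.71 (SD, n = 3), beside 8.83 ± 0.12 in KD3 and 9.23 ± 0.08 in KD4, and the probe was well above background on 2 of the 3 CTL arrays. On the third CTL array, its 2.38 was under the lowest value, 2.41, of any probe well above background. With another background correction (normexp with an offset of 50) the difference was 2.82 in KD3 and 3.16 in KD4. That offset is added to every signal and by itself shrinks a difference from a dim control. These smaller values are therefore no separate estimate of the size. Without this correction, the difference was 5.12 and 5.53 within the first slide, and 5.86 and 6.30 within the second.

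The second KLF8 probe, of the record NM_001159296, did not show the separation. It read 4.80, 5.43 and 4.87 in KD3, 4.51, 4.66 and 5.97 in KD4, and 5.08, 4.45 and 4.34 in CTL, and was well above background on all 9 arrays. The groups overlapped, and 1 KD4 array was the highest of the 9. The difference from CTL was 0.41 ± 0.38 in KD3 and 0.42 ± 0.38 in KD4. Within the first slide, which holds 1 CTL and 1 KD4 array, it was -0.24 and -0.57. Within the second, which holds 1 KD3 array, it was 1.03 and 0.92. The sign differed between the slides, but on so few arrays this cannot be told apart from the spread between arrays. The probes of this 1 gene thus differed from CTL by unequal amounts.

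**Figure D1:**
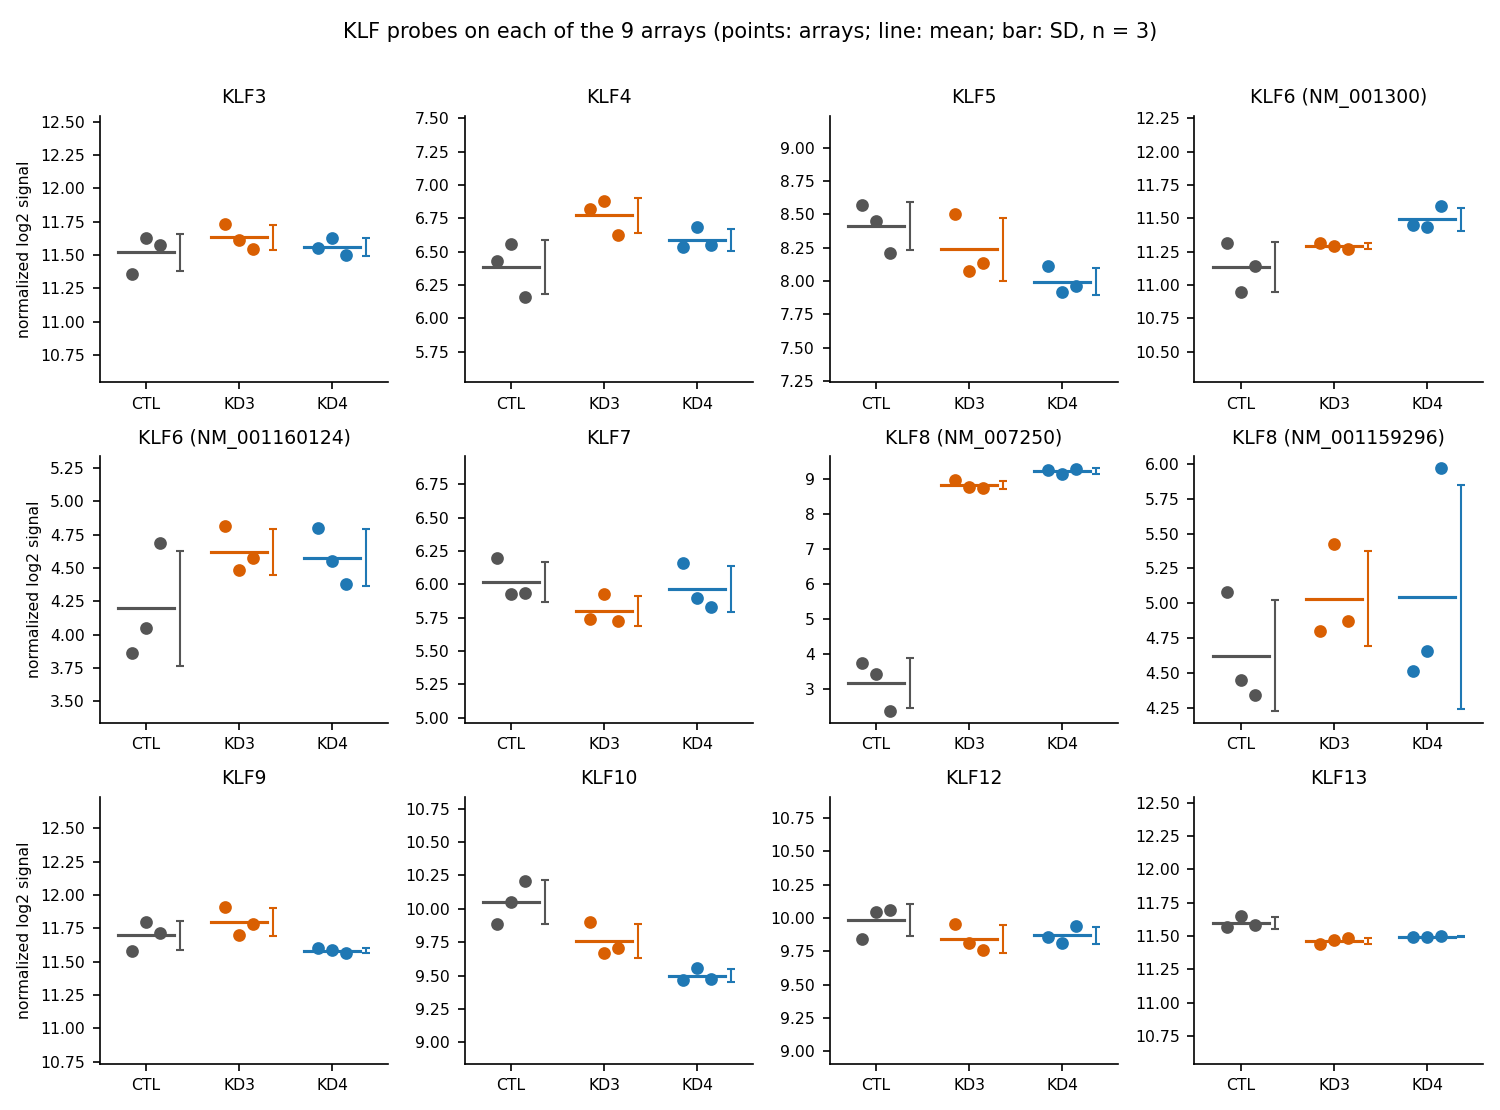
Normalized log2 signal (vertical axis) of the 12 KLF probes on the 3 CTL, 3 KD3 and 3 KD4 arrays. Points are arrays, lines are means and bars are SDs (n = 3), and each panel has its own axis range. The NM_007250 probe of KLF8 sits between 8.76 and 9.28 on the knock-down arrays and between 2.38 and 3.74 on the CTL arrays, while the groups of its NM_001159296 probe overlap.

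KLF3 and KLF12, the other members that bind CtBP, differed little. KLF3, a repressor with roles in fat, blood and muscle, read 11.73, 11.62 and 11.55 in KD3, 11.55, 11.63 and 11.50 in KD4, and 11.36, 11.63 and 11.57 in CTL. All 3 groups overlapped, with a log2 difference of 0.11 ± 0.09 in KD3 and 0.04 ± 0.09 in KD4. KLF12, known as a repressor of TFAP2A, read 9.96, 9.81 and 9.76 in KD3, 9.86, 9.81 and 9.94 in KD4, and 9.84, 10.05 and 10.06 in CTL. It was 0.14 lower on average in KD3 and 0.11 lower in KD4 (log2 differences of -0.14 and -0.11, SE 0.09), within overlapping groups.

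Among the members that recruit Sin3A, KLF10 differed most. KLF10, first described as a gene induced early by TGF-beta, read 9.90, 9.67 and 9.71 in KD3, 9.47, 9.55 and 9.48 in KD4, and 9.89, 10.05 and 10.21 in CTL. The KD4 arrays lay below all CTL and all KD3 arrays, while 1 KD3 array overlapped CTL. The log2 difference from CTL was -0.29 ± 0.10 in KD3 and -0.55 ± 0.10 in KD4, so the order was KD4, KD3, CTL, with the last pair not separated. Within the first slide it was -0.08 and -0.42, and within the second -0.46 and -0.62.

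KLF9, a factor induced by steroid and thyroid hormones, read 11.91, 11.70 and 11.78 in KD3, 11.60, 11.58 and 11.56 in KD4, and 11.58, 11.80 and 11.72 in CTL. The KD4 arrays lay below the KD3 arrays, but both overlapped CTL, with log2 differences of 0.10 ± 0.08 and -0.12 ± 0.08. KLF13, which activates CCL5 in T cells, read 11.44, 11.47 and 11.48 in KD3, 11.49, 11.49 and 11.50 in KD4, and 11.57, 11.65 and 11.58 in CTL. The groups did not overlap in the order KD3, KD4, CTL, but the whole range over the 9 arrays was 0.21, and the log2 differences were -0.13 ± 0.06 and -0.10 ± 0.06.

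Among the activators, the means of KLF4 and KLF5 lay on opposite sides of CTL. KLF4, a reprogramming factor that restrains epithelial division, read 6.82, 6.88 and 6.62 in KD3, 6.54, 6.68 and 6.55 in KD4, and 6.43, 6.56 and 6.16 in CTL. The KD3 arrays lay above all CTL arrays (log2 difference 0.39 ± 0.12), whereas the KD4 arrays overlapped both (0.21 ± 0.12). KLF5, which promotes division of epithelial and smooth muscle cells, read 8.50, 8.07 and 8.13 in KD3, 8.11, 7.92 and 7.96 in KD4, and 8.57, 8.45 and 8.21 in CTL. The KD4 arrays lay below all CTL arrays (-0.41 ± 0.14) and the KD3 arrays overlapped both other groups (-0.17 ± 0.14).

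KLF6, a growth suppressor in many epithelia, had 2 probes. That of NM_001300 read 11.31, 11.29 and 11.27 in KD3, 11.45, 11.43 and 11.59 in KD4, and 11.32, 10.95 and 11.14 in CTL. The KD4 arrays lay above all others (0.36 ± 0.10), and KD3 overlapped CTL (0.16 ± 0.10). That of NM_001160124 read 4.81, 4.48 and 4.57 in KD3, 4.80, 4.55 and 4.38 in KD4, and 3.86, 4.05 and 4.69 in CTL. The differences were 0.42 ± 0.21 and 0.38 ± 0.21, and the highest CTL array overlapped both knock-downs. KLF7, a factor of developing neurons, read 5.74, 5.93 and 5.73 in KD3, 6.16, 5.89 and 5.83 in KD4, and 6.19, 5.93 and 5.93 in CTL. Its groups overlapped, with differences of -0.22 ± 0.12 and -0.05 ± 0.12.

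**Figure D2:**
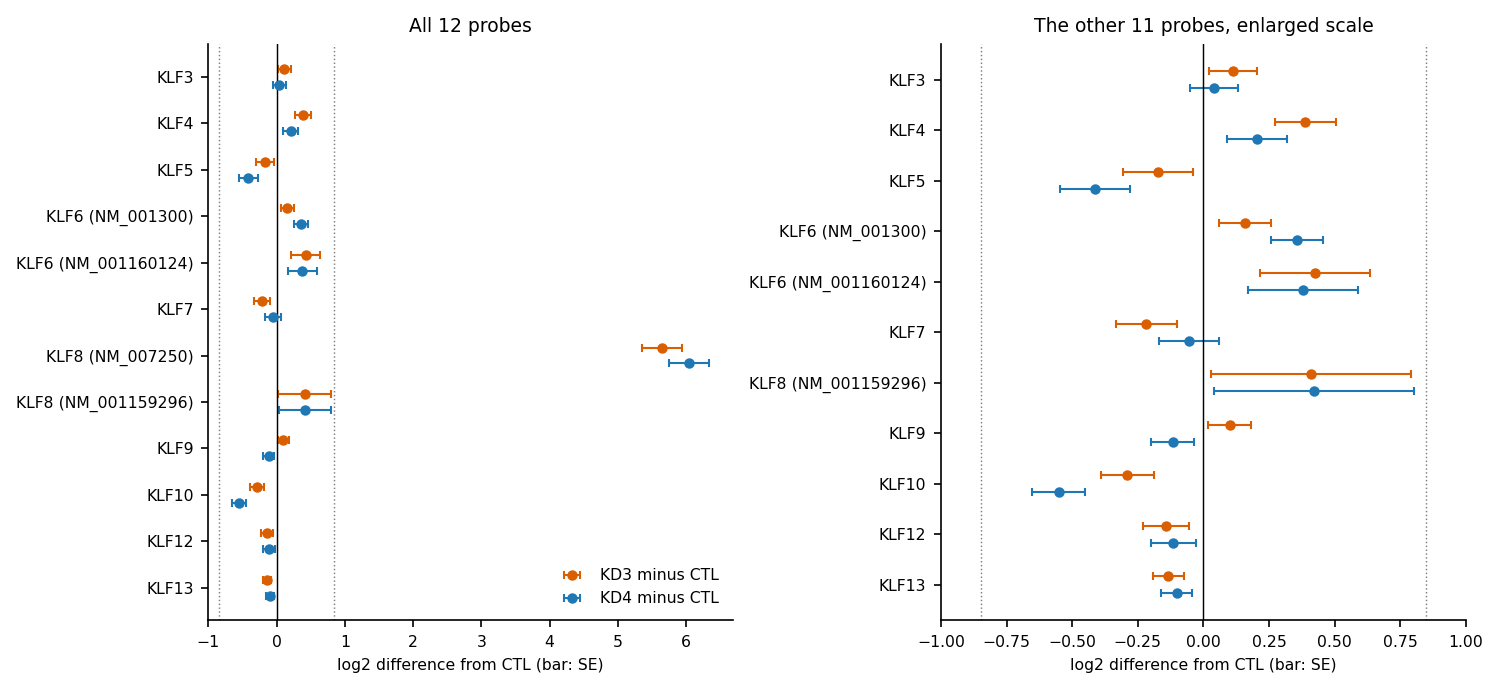
Log2 difference from CTL (horizontal axis) of each KLF probe in KD3 and KD4, with the SE as bars and dotted lines at the fold threshold of 1.8 in either direction. The left panel shows all 12 probes and the right panel the 11 without KLF8 NM_007250, which lie between -0.55 and 0.42, inside the dotted lines.

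A gene was called changed where a probe of it differed at least 1.8-fold with a limma adjusted p under 0.05 over all 32276 tested probes (26862 genes, an unnamed transcript counting as 1 gene). All 12 KLF probes were among those tested, KLF8 NM_007250 through its knock-down arrays, where it was high. In each knock-down 1 of the 10 members was called, KLF8 through its NM_007250 probe and upward, and no member was called lower. Over all tested genes, 1.24% were called higher and 2.43% lower in KD3, 1.57% and 3.53% in KD4, and 0.823% higher and 1.83% lower in both. No member was called between KD4 and KD3, where 0.503% of all genes were. Without the fold threshold, 2 members were called in KD3 (KLF4 and KLF8) and 3 in KD4 (KLF6, KLF8 and KLF10), where 21.7% and 30.6% of all genes were. Since the members were selected on results of these contrasts, the counts are a description.

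Groups that did not overlap were counted beside the share over all tested probes. Of the 12 probes, 2 lay wholly above CTL in KD3 and 1 below, where 18.5% and 17.5% of the array's tested probes did. In KD4, 2 lay above and 3 below, beside 23.1% and 21.8%. Between the knock-downs, 3 lay higher in KD4 and 2 lower, beside 14.1% and 14.9%. The 11 probes other than KLF8 NM_007250 ranged from -0.29 to 0.42 in KD3 and from -0.55 to 0.42 in KD4. The median over the 10 genes was -0.02 in KD3 and -0.08 in KD4, where that of all genes was 0.01 and 0.04.

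The rest of the KLF family and the related SP factors, which bind the same kind of GC-rich box, held no called gene in either knock-down. Of 17 such genes listed, 16 had a probe and 14 were tested. At an adjusted p under 0.05 without the fold threshold, 4 of the 14 passed in KD3 and 2 in KD4, beside 21.7% and 30.6% of all genes. SP6, a factor of tooth and limb development, came closest to the threshold. It read 7.35, 7.31 and 7.16 in KD3, 7.70, 7.68 and 7.69 in KD4, and 7.85, 8.21 and 8.25 in CTL, so that the 3 groups were apart and KD3 the lowest. Its log2 difference was -0.83 ± 0.11 in KD3 and -0.41 ± 0.11 in KD4 (limma adjusted p = 0.00142 and 0.0245). KLF11, a close relative of KLF10 that also recruits Sin3A, differed by -0.45 ± 0.09 in KD3 (limma adjusted p = 0.00813) and by -0.18 in KD4 (adjusted p = 0.155). SP5, a target of Wnt signalling, was well above background on 1 CTL array only and was not tested, as was KLF15.

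Of 15 genes listed as partners of KLFs, all tested, 1 was called in KD3 and none in KD4. HDAC2, a histone deacetylase of the Sin3 complexes, was called through its dimmer probe, which read 8.73, 8.50 and 8.41 in KD3, 8.26, 8.22 and 8.26 in KD4, and 7.54, 7.58 and 7.22 in CTL. The groups were apart, with log2 differences of 1.10 ± 0.11 and 0.80 ± 0.11 (limma adjusted p = 0.000399 and 0.00148). Its brightest probe went the other way, at -0.11 and -0.23, and the probes therefore disagree. The corepressors CTBP1 and CTBP2, which KLF3, KLF8 and KLF12 bind, differed on their brightest probes by 0.03 and 0.00 in KD3 and 0.11 and -0.03 in KD4 (limma adjusted p from 0.377 to 0.971). SIN3A differed by -0.06 and -0.01. At an adjusted p under 0.05 without the fold threshold, 5 of the 15 partners passed in KD3 and 4 in KD4, beside the 21.7% and 30.6% over all genes. Those that passed included the acetyltransferases EP300 (0.34 in both) and KAT2B (0.38 in both).

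Of 35 genes listed from general knowledge as targets of KLFs, 32 were tested, and 2 were called, both lower in both knock-downs. Of all tested genes, 1.83% were called lower in both. This list, like those of partners and of other KLF and SP genes, was drawn up with earlier results of these data known. The counts and p-values of these lists are therefore a description. CDH1, the epithelial cadherin and a gene that KLF8 is known to repress, read 7.25, 6.95 and 6.84 in KD3, 6.98, 6.82 and 6.89 in KD4, and 8.08, 8.20 and 8.00 in CTL. All knock-down arrays lay below CTL, and CDH1 fell by 1.08 in KD3 and by 1.20 in KD4 on the log2 scale (SE 0.11, limma adjusted p = 0.000397 and 0.000189). LGALS3, the galectin that KLF3 is known to repress, read 9.99, 9.84 and 9.90 in KD3, 9.99, 10.08 and 9.99 in KD4, and 11.23, 11.42 and 11.30 in CTL. It fell by 1.40 and 1.29 (SE 0.08, limma adjusted p = 1.51e-05 and 1.95e-05), again with no overlap. The CDH1 call was lost in both knock-downs on the arrays of the first slide alone, and in KD3 with the normexp correction and with the methods' t-test after adjustment. Within the first slide CDH1 was still at -1.03 in KD3 and -1.09 in KD4, on 1 CTL array.

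With no fold threshold, 10 target genes in KD3 and 12 in KD4 passed an adjusted p under 0.05, the 2 called genes included. This stands beside the same 21.7% and 30.6% of all genes. CCND1, the cyclin D1 gene that KLF8 is known to activate, read 9.02, 9.18 and 9.07 in KD3, 9.26, 9.16 and 9.37 in KD4, and 8.71, 8.57 and 8.47 in CTL. Its groups did not overlap with CTL, and the log2 difference was 0.50 ± 0.09 in KD3 and 0.68 ± 0.09 in KD4 (limma adjusted p = 0.0056 and 0.00102). Lower values under the fold threshold were measured for FN1 (fibronectin, -0.67 and -0.58) and GAP43 (an axon growth protein, -0.78 and -0.47). PDGFA, a growth factor, was at -0.63 and -0.72, with -0.34 and -0.28 on its dimmer probe. The cell cycle inhibitors were lower too, CDKN1A by -0.47 and -0.41, and CDKN1B by -0.39 and -0.44 (-0.41 and -0.34 on its dimmer probe). KRT19 passed in KD4 at 0.43, above CTL, and TGFBR2 in KD4 at -0.29, with 0.23 in KD3. COL1A1 passed in KD3 at -0.37 and PLAU in KD4 at -0.36. TAGLN passed in KD4 on its dimmer probe at -0.47, with 0.11 on its brightest. MMP9 and MMP14, matrix metalloproteinases that KLF8 is also known to activate, were not higher past the test. MMP9 differed by -0.33 in KD3 and -0.06 in KD4 (limma adjusted p = 0.0141 and 0.585), and MMP14 by 0.06 and 0.14 (adjusted p = 0.839 and 0.521). TFAP2A, the repression target of KLF12, differed by 0.25 and 0.28 (limma adjusted p = 0.274 and 0.196). The median over the 32 target genes was -0.09 in KD3 and 0.02 in KD4, where that of all genes was 0.01 and 0.04.

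**Figure D3:**
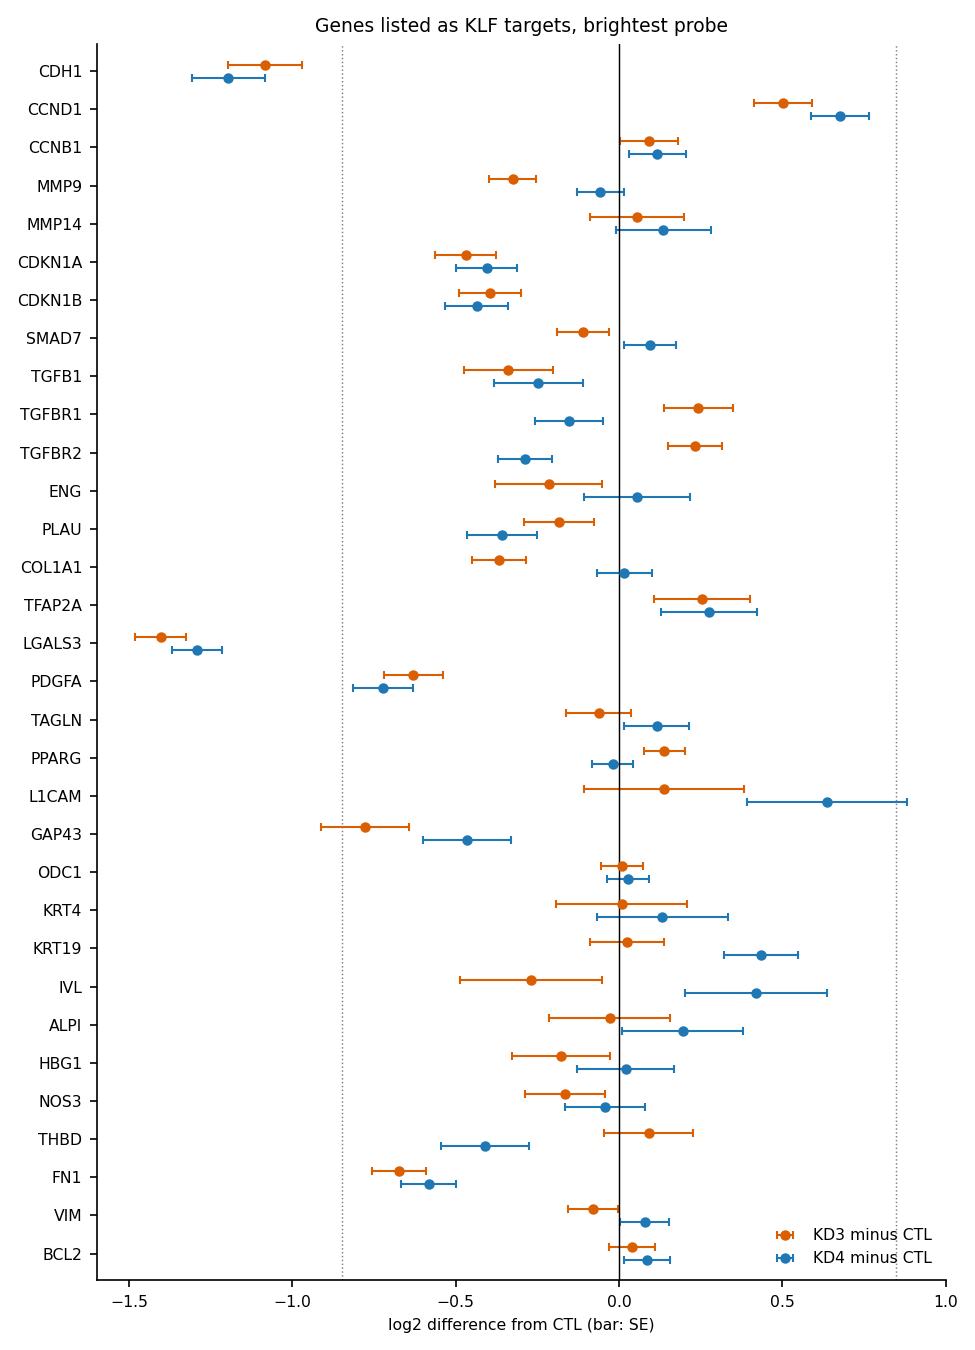
Log2 difference from CTL (horizontal axis) of the 32 tested genes listed as KLF targets, by the brightest probe of each gene, in KD3 and KD4. Bars are SEs and dotted lines mark the fold threshold of 1.8. CDH1 and LGALS3 lie left of the lower line in both knock-downs, and CCND1 lies at 0.50 and 0.68.

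The position of KLF8 on the X chromosome was then examined through its neighbours, 19 genes with a probe on both sides of it in the gene order of the RefSeq table. Genes without a probe were skipped and distances were not used, so a listed gene, above all an outer one such as SPIN4, need not lie close to KLF8. Of these 19 genes, 15 were tested, and 2 were called higher in KD3 and 4 in KD4, with none lower. Of all tested genes, 1.24% were called higher in KD3 and 1.57% in KD4. The genes next to KLF8 in this order of genes with a probe were not called. RRAGB, a GTPase that signals amino acid supply, differed by 0.33 and 0.42, and UBQLN2, a ubiquitin-binding shuttle protein, by 0.14 and 0.09 (limma adjusted p from 0.0751 to 0.329).

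MAGEH1, a type II MAGE gene that lies 4 places away in the order of genes with a probe, differed most among the neighbours. It read 8.02, 7.63 and 7.91 in KD3, 9.47, 9.47 and 9.37 in KD4, and 3.83, 4.33 and 4.29 in CTL, so that all groups were apart in the same order as for KLF8. It rose by 3.70 ± 0.15 in KD3 and by 5.28 ± 0.15 in KD4 (log2), and was 1.58 higher in KD4 than in KD3 (limma adjusted p = 0.0021 for this difference). SPIN4, a histone reader of the spindlin family, rose by 1.04 in KD3 and by 0.88 in KD4 (limma adjusted p = 0.00149 and 0.00233), while its dimmer probe read 0.83 and 0.54 above CTL. FAAH2, a fatty acid amide hydrolase, rose by 1.11 in KD4 (adjusted p = 4.9e-05) and was 0.63 above CTL in KD3.

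PAGE2B was called in KD4 through its dimmer probe, at 0.92, with 0.48 on the brighter. The dimmer probe was well above background on 3 KD4 arrays, 1 CTL array and no KD3 array. It was thus tested only through the group in which it was high. Its call was lost with normexp, whose offset by itself shrinks differences between dim values. It cannot be told apart from the near-identical PAGE2 (0.14 in KD3 and 0.63 in KD4) with certainty. The other tested neighbours differed, in KD3 and KD4 respectively, by 0.26 and 0.66 (APEX2), -0.27 and 0.02 (ALAS2), 0.76 and 0.37 (VCF2), 0.40 and 0.10 (SPIN3), 0.33 and 0.34 (SPIN2B), 0.30 and 0.57 (ZXDB), -0.16 and -0.11 (ZXDA), and 0.52 and 0.83 (LINC01278). SPIN and ZXD genes have close copies among these neighbours, so a probe of one may also read another. Of the 15 genes, 13 were above 0 in KD3 and 14 in KD4, with medians of 0.33 and 0.48. Over all tested genes, 51.5% and 55.8% were above 0, with medians of 0.01 and 0.04. The neighbours were not compared with other X-linked genes, so these values do not tell this stretch from the rest of the chromosome. Leaving out single arrays changed calls of this list in KD4. The SPIN4 call needed KD4 replicate 3 and both the first and the third CTL replicate, and that of PAGE2B needed KD4 replicate 1 and CTL replicate 2. MAGEH1 and FAAH2 were called each time. The fold of SPIN4 in KD4 was 1.84, close to the threshold of 1.8. With the methods' t-test after adjustment, SPIN4 was called in neither knock-down and PAGE2B was not called in KD4.

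**Figure D4:**
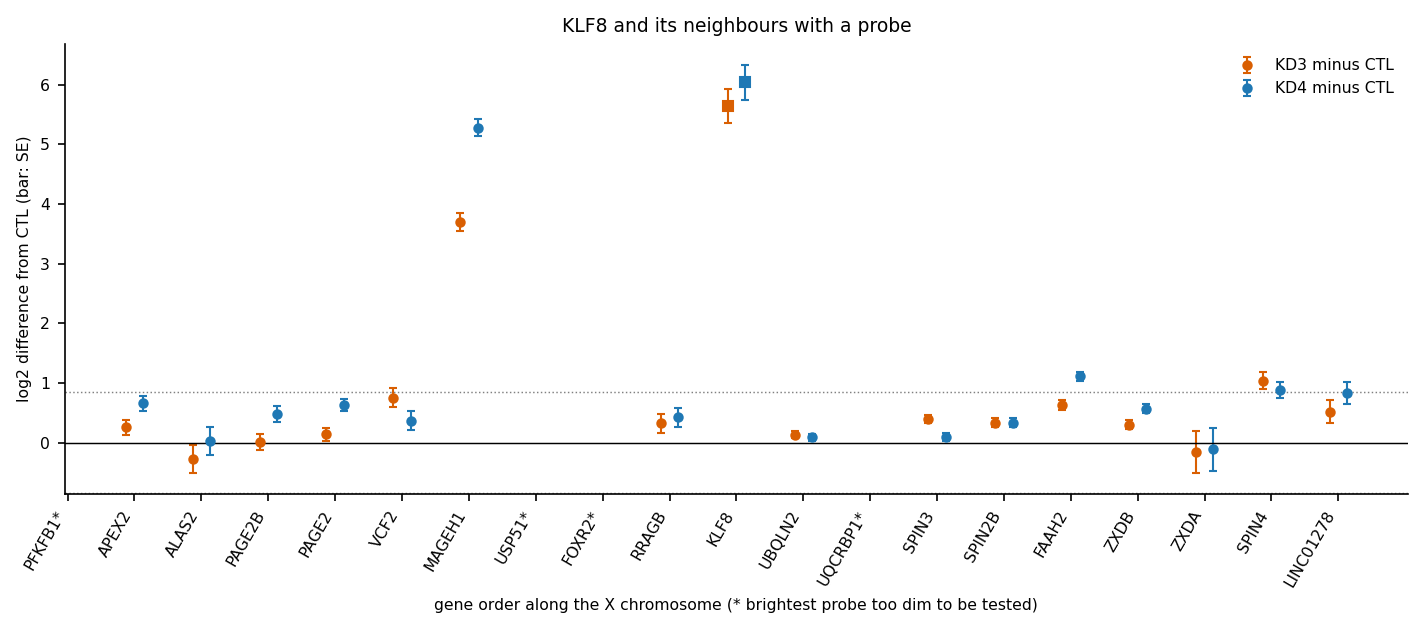
Log2 difference from CTL (vertical axis) of KLF8 (squares, probe NM_007250) and its neighbours with a probe (circles, brightest probe), in their order along the X chromosome, in KD3 and KD4. Bars are SEs, the dotted line is the fold threshold of 1.8, and spacing is by order and not by distance. KLF8 and MAGEH1 lie between 3.70 and 6.04, and RRAGB and UBQLN2, next to KLF8 among genes with a probe, lie between 0.09 and 0.42.

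The genes whose pattern over the 9 arrays was nearest to that of KLF8 NM_007250 were sought among 16081 named genes, by the Euclidean distance between log2 values less their CTL mean. This distance was not scaled, so only genes that also rose strongly in both knock-downs could lie near. The nearest was TNMD (tenomodulin, a tendon glycoprotein) at a distance of 2.32, followed by MAGEH1 at 3.85, SPOCK3 (a testican proteoglycan) at 3.89, UNC5D (a netrin receptor) at 4.51 and BEX5 at 4.75. TNMD, MAGEH1 and BEX5 lie on the X chromosome, but the share of X-linked genes among all strongly raised genes was not computed. TNMD differed from CTL by 5.17 and 6.39, beside 5.65 and 6.04 for KLF8. SPOCK3, UNC5D and BEX5 were well above background on no CTL array and TNMD on 2, so that their distances, too, depend on dim control values.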

How the data were processed

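RNA of HEK293 cells with SmcHD1 shRNA 3, shRNA 4 or control shRNA NC5 was measured on 3 Agilent one-colour arrays each (design 028004). The authors deposited scanner files with the spot intensity that Feature Extraction 10.10.1.1 gave, background-subtracted and detrended within the array, per the file headers. They also deposited a table of log2 values, quantile normalized in GeneSpring per the methods (written quintile there). It was used as an alternative and lay a median of -0.07 from the values computed here.

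Control spots, outlier spots and 21 probes without a value were left out. Processed intensities were quantile normalized on the log2 scale and spots of 1 probe averaged, which left 42384 probes. A probe entered the test where every array of at least 1 group had it well above background. Probes were named through the RefSeq accession in the files and RefSeq's gene table (GRCh38.p14), which named 25413 probes of 19479 genes. Differences were fitted with limma 3.58.1 in R 4.3.3 over all 9 arrays, with Benjamini-Hochberg adjustment, and a fold of at least 1.8 was required. The scripts were tested on simulated data.

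The members and lists were chosen with earlier results of these data known. Named genes were every member, the called genes of each list, all tested KLF8 neighbours and the 5 genes nearest KLF8 in pattern, and 1 gene is not reported here. Values of other genes under the threshold, such as CCND1, MMP9 and MMP14, were added after they were seen. Alternatives were scaling, background correction, filters, the methods' t-test, slide and replicate block, and leaving out each array.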

Additional observations from a re-analysis of the deposited data

How the results depend on the processing

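The KLF8 call was kept in both knock-downs when any 1 array was left out, within each slide, with the other scaling, the normexp correction, the authors' values and no filter. It was lost, for 0 members called in KD3, KD4 and both, when probes had to be well above background on all 9 arrays, since KLF8 NM_007250 was then not tested, and with the methods' t-test after adjustment, which without adjustment called 1 member in each. Without the fold threshold, calls in KD3 and KD4 were 2 and 3 of 10 members, 4 and 2 of 14 other KLF and SP genes, and 5 and 4 of 15 partners. They were 10 and 12 of 32 targets, and 7 and 9 of 15 KLF8 neighbours. Over all tested genes, 21.7% and 30.6% were called in this way.

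Other KLF and SP genes gave 1 call (SP6) in KD3 with 75th percentile scaling or the second slide alone, 0 to 1 when single arrays were left out, and 1 (SP5) in KD4 without the filter. Partners gave 0 in KD3 with the methods' t-test after adjustment, the second slide alone or the brightest probe alone, and 0 to 1 in KD4 when single arrays were left out, the 1 being HDAC2 without CTL replicate 2. Targets gave 1 in KD3 with normexp, the adjusted t-test or the first slide alone, and 1 in KD4 with the first slide alone. Neighbours gave 1 in KD3 and 2 in KD4 with the adjusted t-test, and 2 in KD4 with the first slide alone. When single arrays were left out, targets gave 2 to 3 in each knock-down and neighbours 2 to 3 in KD3 and 3 to 5 in KD4. SMCHD1 in KD3 was -0.84 within the first slide (limma adjusted p = 0.0593), the highest of a range from 1.04e-05 to 0.0593. The cause of these changes was not tested.

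The replicate numbers did not pair the arrays, with correlations of deviations between -0.08 and 0.14 for same-numbered arrays. A fit with the replicate block called 1 member in each knock-down and changed no count of calls of these lists. Of 550 recomputed differences of member probes, 522 moved by less than the spread between replicates and 28 by more, 18 of them within the first slide, which holds 1 CTL and 1 KD4 array. KLF8 NM_007250 ranged from 2.82 to 5.93 in KD3 and from 3.16 to 6.32 in KD4. The lowest of each came with normexp, whose offset by itself shrinks a difference from a dim control. Dim CTL signal limits the fold change of this probe.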
